A study of Mus musculus with 6 samples.

Results

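The expression of 10 genes associated with the B-1 lineage of B lymphocytes was followed through the peritoneal cells of a study of apoptotic cell clearance: Bhlhe41, Zbtb32, Cd5, Bcat1, Wnt1, Serpinb6b, Adgrl2, Rab11fip4, Plscr1 and Fibcd1, which are 10 of the 55538 features counted. They were chosen by name with earlier results of the same table known, selected on their levels in B cells without and with a unique molecular identifier (UMI, 1 tagged RNA molecule) of Fcer2a and in T/NK cells, so their levels in these cells are given as a description and without a test. Cells were lavaged from the peritoneum of C57BL/6 mice (C57BL/6J in the study's methods) that were MerTK +/+ (WT) or MerTK -/- (MerKD, backcrossed for 10 generations), 8 to 12 weeks old, and the cells of 3 mice were pooled in each group. They adhered for 1 h and then received a media change (WT_Ctrl and MerKD_Ctrl) or UV-killed apoptotic Jurkat cells, a human T cell line, for 2 h (WT_2hr and MerKD_2hr) or 6 h (WT_6hr and MerKD_6hr), with 1 library per genotype and condition. The 6 libraries are told apart in the count table by a suffix of the cell barcode, 1 to 6. No suffix could be matched to a genotype or a time, so no genotype or time is compared, and each suffix is given as a separate library.

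B-1 cells are innate-like, self-renewing B cells that dominate the B cells of the peritoneal and pleural cavities and secrete much of the natural IgM. They carry much surface IgM and little IgD, and they lack CD23, the low-affinity IgE receptor that Fcer2a encodes, whereas conventional follicular B-2 cells carry CD23 and IgD. The B-1a subset also carries CD5 on its surface.

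Of 7760 barcodes, 7665 were kept. The libraries held between 4234786 and 10287079 UMIs. B cells were gated at 4 or more UMIs of Cd79a and Cd79b, which encode the signalling chains of the B cell receptor, with none of the macrophage genes Csf1r and Adgre1, and 2979 cells passed. These are 38.9% of the kept cells, although the labels name peritoneal macrophages as the cell type. All 8 B cell markers examined, among them Ms4a1, Pax5, Ebf1, Cd22 and Blk, were found in at least 36.8% of the gated cells. Cd79a and Cd79b are also among the 8, and their presence was set by the gate. T/NK cells (2 or more UMIs of Cd3d, Cd3e and Nkg7, and outside the B gate) numbered 519, and macrophages (3 or more UMIs of Csf1r and Adgre1, with none of the B and T/NK gate genes) numbered 1486. Median depth was 5490 UMIs in Fcer2a-negative B cells, 5469 in Fcer2a-positive B cells, 2826 in T/NK cells and 5573.5 in macrophages. The 6 libraries share 28 barcode sequences. The gate has neighbours on both sides of its limit, with 258 B cells at exactly 4 UMIs and 277 cells at 3.

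Fcer2a was sparse. It was found in 159 B cells (5.34%) with 231 UMIs in all, and 116 of these 159 cells held 1 UMI, the smallest number that the rule admits. The other 2820 B cells, 94.7% (93.8–95.4%, exact binomial 95% interval), had none, and the share lay between 94.1% and 95.5% in the 6 suffixes. One UMI of Fcer2a was found in T/NK cells and 0 in macrophages. A B cell without a UMI may still express the gene at this depth. All intervals cover counting error only.

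Bhlhe41, also known as Dec2, is a basic helix-loop-helix repressor that B-1a cells need for their development and self-renewal, and lies at chr6:145858243-145865558 (GRCm38, minus strand). In Fcer2a-negative B cells its level was 36.0, 26.2, 34.0, 35.4, 24.4 and 25.0 CPM (counts of a gene per 1000000 UMIs) in suffixes 1 to 6, or 31.3 CPM over all (28.8–34.0, exact Poisson 95% interval). It was the steadiest of the 10 genes, with a ratio of 1.47 between the highest and the lowest suffix. Macrophages held as much of it, 33.2 CPM (29.6–37.2), but spread over a wider range, with 10.5, 16.7, 5.85, 53.4, 85.7 and 81.3 CPM in suffixes 1 to 6. Macrophages of suffixes 4, 5 and 6 were above the B cells of their own library, and those of suffixes 1, 2 and 3 below them. T/NK cells held 9 UMIs, or 4.82 CPM. Its paralog Bhlhe40, which encodes Dec1, was at 54.8 CPM in Fcer2a-negative B cells and at 216 CPM in macrophages.

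Zbtb32 encodes a zinc finger repressor that restrains the recall responses of memory B cells (chr7:30589681-30598909, minus strand). Its level in Fcer2a-negative B cells was 86.7, 102, 103, 88.6, 121 and 207 CPM in suffixes 1 to 6, with suffix 6 above the other five, and 106 CPM over all (101–111). With each cell drawn down to 1500 UMIs (thinned), it was found in 12.7% of 2785 Fcer2a-negative B cells (11.5–14.0%) and was the most often found of the 10. Macrophages held 4 UMIs in all, 0.449 CPM, so Zbtb32 separated B cells from macrophages by 7.87 on the log2 scale (6.51–9.75, exact conditional 95% interval).

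The stretches upstream of the start of these 2 repressors, and of Bcat1 and Serpinb6b, which were found in the same cells (below), are shown from the RefSeq promoter table of GRCm38.p6, which holds 9 of the 10 genes and not Rab11fip4. Each ends before the first annotated base of the gene. Capitals mark CACGTG, the E-box that helix-loop-helix proteins bind, and CCAAT, on either strand, where ATTGG is CCAAT on the other strand. The letters TGANTCA were also searched on both strands and are in none of the 4 stretches. The full 250 bases before the RefSeq start of Bcat1 hold 1, which the shorter stretch shown does not hold in full. In 250 bases, 6.75% of promoters hold it.
Bhlhe41, chr6:145865559-145865670, minus strand: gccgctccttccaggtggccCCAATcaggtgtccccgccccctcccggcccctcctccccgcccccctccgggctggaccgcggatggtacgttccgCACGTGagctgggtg
Zbtb32, chr7:30598910-30599159, minus strand: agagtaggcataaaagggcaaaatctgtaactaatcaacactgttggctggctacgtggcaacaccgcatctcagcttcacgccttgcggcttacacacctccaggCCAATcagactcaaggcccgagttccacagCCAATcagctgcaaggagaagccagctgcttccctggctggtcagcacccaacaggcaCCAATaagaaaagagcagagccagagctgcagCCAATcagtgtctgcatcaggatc
Bcat1, chr6:145076185-145076407, minus strand: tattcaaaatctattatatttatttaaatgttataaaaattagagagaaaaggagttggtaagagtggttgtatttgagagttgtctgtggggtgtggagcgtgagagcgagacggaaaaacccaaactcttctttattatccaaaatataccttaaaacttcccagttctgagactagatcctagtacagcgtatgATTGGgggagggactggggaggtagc
Serpinb6b, chr13:32965011-32965208, plus strand: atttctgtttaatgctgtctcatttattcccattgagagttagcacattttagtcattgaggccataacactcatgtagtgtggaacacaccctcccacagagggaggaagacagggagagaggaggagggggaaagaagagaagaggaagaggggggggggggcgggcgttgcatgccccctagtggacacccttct
The Bhlhe41 stretch holds 1 CACGTG, which 1.99% of 32851 promoters hold in a window of the same length and place. The Zbtb32 stretch holds 4 CCAAT. At least 1 is held by 33.8% of promoters in that window, and the share with 4 or more was not counted. In the full 250 bases, 1 of the 9 members held CACGTG and 4 held CCAAT, beside 6.02% and 33.8% of promoters. These matches are letters in a window and not binding sites.

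Cd5 encodes a surface receptor of T cells and B-1a cells that dampens antigen receptor signalling (chr19:10717116-10739002, minus strand). It was the scarcest member in B cells, at 6.52, 4.11, 10.8, 5.32, 7.98 and 6.45 CPM in suffixes 1 to 6 of the Fcer2a-negative cells and 6.90 CPM over all (5.74–8.22). T/NK cells held 53.0 CPM (43.1–64.5), and their lowest suffix, at 41.2 CPM, lay above the highest suffix of B cells. Part of the Cd5 in B cells was in cells that also carried T cell RNA. Of the 89 Fcer2a-negative B cells with a Cd5 UMI, 33 (37.1%, 27.1–48.0%) also met the T/NK limit of 2 UMIs, against 3.92% (3.22–4.72%) of those without. Outside the T/NK limit Cd5 fell to 3.99 CPM (3.09–5.08) in 56 of 2680 cells, while inside it the level was 39.8 CPM (30.2–51.4). Suffix 3, which had the most Cd5 in B cells, also had the most Cd3e in them, at 36.6 CPM against 4.61 to 25.9 CPM in the others, and the most B cells inside the T/NK limit, 66 of 512. The part of T cell RNA in the Cd5 values of single cells was not tested.

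The remaining members encode enzymes, a ligand and membrane or vesicle proteins. Serpinb6b, an intracellular serine protease inhibitor (chr13:32965209-32979067, plus strand), was at 69.5, 97.9, 153, 89.3, 177 and 374 CPM in suffixes 1 to 6 of Fcer2a-negative B cells. It was below Zbtb32 in suffixes 1 and 2, near it in suffix 4 and above it in the others. Over all suffixes it was at 129.9 CPM (125–135), the highest pooled level of the 10, and at 111.8 CPM without suffix 6. Bcat1, the cytosolic aminotransferase of branched-chain amino acids (chr6:144993835-145076184, minus strand), was at 63.5, 64.2, 103, 39.0, 75.3 and 163 CPM in the same order, and at 76.5 CPM over all (72.5–80.7). Both were lowest in suffix 1 or 4 and highest in suffix 6.

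Rab11fip4, an effector of the recycling-endosome GTPase Rab11 (chr11:79591212-79698023, plus strand), was likewise lowest in suffix 4 and highest in suffix 6, with 42.3, 41.6, 78.9, 27.3, 59.9 and 149 CPM in suffixes 1 to 6 and 57.0 CPM over all (53.6–60.6). Adgrl2, the adhesion G protein-coupled receptor latrophilin-2 (chr3:148815583-148990555, minus strand), was lower, with 7.73, 4.88, 15.7, 9.21, 31.4 and 50.8 CPM, and varied most, by 10.4-fold between its highest and lowest suffix. Wnt1, a secreted Wnt ligand (chr15:98789857-98793837, plus strand), was at 31.4, 20.8, 34.0, 13.8, 6.98 and 36.3 CPM, with suffixes 4 and 5 below the other four.

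Plscr1, an interferon-inducible phospholipid scramblase (chr9:92249750-92272278, plus strand), had another order, with 65.0, 57.0, 45.1, 31.2, 47.4 and 46.0 CPM in suffixes 1 to 6 and its highest value in suffix 1. Fibcd1, a membrane receptor that binds acetylated structures such as chitin (chr2:31813290-31846005, minus strand), was near the level of Cd5, with 9.42, 7.96, 11.1, 4.61, 8.98 and 12.9 CPM.

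Suffix 6 had the highest level of 7 of the 10 members and the lowest of none. Suffix 4 had the lowest level of 4. The B cells of suffix 6 were also the shallowest, with a median of 3889 UMIs, and had the highest level of the activation-induced factor Egr3, at 208 CPM against 65.2 to 105 CPM in the other suffixes. At equal depth suffix 6 was still the highest for both Serpinb6b and Rab11fip4, with Serpinb6b in 28.0% of suffix 6 cells and in 5.27% to 13.6% elsewhere, and Rab11fip4 in 15.0% against 2.54% to 7.64%. Without suffix 6 the pooled levels were 98.3 CPM for Zbtb32, 70.1 CPM for Bcat1, 50.2 CPM for Rab11fip4 and 12.01 CPM for Adgrl2. Which animals or treatment suffix 6 came from cannot be told from the table.

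**Figure D1:**
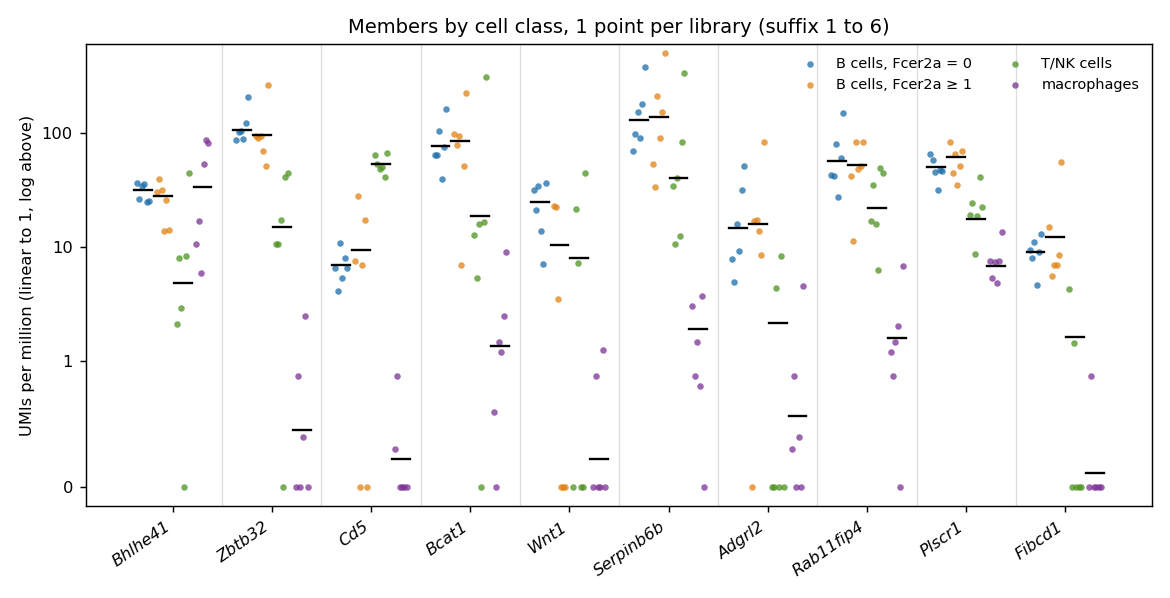
Level of each of the 10 genes (y axis, CPM, linear up to 1 and logarithmic above) in Fcer2a-negative B cells, Fcer2a-positive B cells, T/NK cells and macrophages, with 1 point per barcode suffix and a black line for the pooled value. The 2 kinds of B cells overlap for every gene, Cd5 is highest in T/NK cells, and Bhlhe41 in macrophages ranges from 5.85 to 85.7.

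Across cell classes, 9 of the 10 members were at least 2-fold higher in B cells than in T/NK cells and 1, Cd5, was at least 2-fold lower, by 2.91 on the log2 scale (2.52 to 3.30). Over all 9739 genes compared, 9.72% were at least 2-fold higher and 13.9% at least 2-fold lower. The median log2 ratio of the members was 1.87, beside -0.05 for all genes, and the members had been listed with these values known. The largest ratios were those of Zbtb32 (log2 2.81, 2.28–3.41), Adgrl2 (2.78, 1.41–4.67) and Bhlhe41 (2.69, 1.76–3.83), and the smallest of the 9 higher members was that of Rab11fip4 (1.37, 0.92–1.86). T/NK cells carried some B cell RNA, with 147 CPM in sum over the 8 B cell markers against 3222 CPM in B cells. Cd79a and Cd79b, which form the B gate, made up 1283.5 and 538 CPM of the sum in B cells. T/NK cells carried more macrophage RNA, with 2178 CPM in sum over 6 macrophage markers, of which Lyz2 made up 1967 CPM. Among the 450 T/NK cells with no UMI of Cd79a, Cd79b, Csf1r or Adgre1 the B cell sum was 12.9 CPM and the macrophage sum 130 CPM. The sums include those genes, which the selection set to 0, so part of this fall was fixed by it. The median ratio of the members rose to 2.52, again with 9 members higher and 1 lower, beside 16.1% and 13.3% of all genes. In those 450 cells Bhlhe41 was down to 1 UMI, and Adgrl2 and Fibcd1 had 0 UMIs and entered the median at the bound that 3 UMIs give, whereas Serpinb6b still had 34 UMIs (25.8 CPM) and Plscr1 25 UMIs (19.0 CPM). With the B gate raised to 8 UMIs, which places B cells of 4 to 7 UMIs that meet the T/NK limit among the T/NK cells, 5 members remained at least 2-fold higher.

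Against macrophages, 9 members were at least 2-fold higher in B cells, beside 28.4% of 9757 genes (17.2% were at least 2-fold lower). The exception was Bhlhe41, with a log2 ratio of -0.09 (-0.30 to 0.11). Plscr1 was the next lowest at 2.92 (2.54–3.32), and the other eight lay between 4.72 and 7.87.

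The split at Fcer2a did not separate the members, against the contrast for which they had been listed. Of the 10, 1 was at least 2-fold higher in Fcer2a-negative than in Fcer2a-positive B cells and 0 were at least 2-fold lower, beside 2.94% and 2.14% of 9502 genes. Their median log2 ratio was -0.10, and that of all genes was -0.02. Serpinb6b was at 129.9 CPM in Fcer2a-negative and 138 CPM in Fcer2a-positive cells (log2 ratio -0.09, -0.33 to 0.16). Zbtb32 was at 106 and 96.3 CPM (0.14, -0.15 to 0.44), and Bcat1 at 76.5 and 84.2 CPM (-0.14, -0.45 to 0.19). These 3 counting intervals lay within 2-fold in either direction, as did those of Bhlhe41, Rab11fip4, Plscr1 and Adgrl2, while those of Cd5 (-1.37 to 0.66) and Fibcd1 (-1.27 to 0.49) reach beyond a 2-fold lower level.

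Wnt1 was the member that passed 2-fold, at 24.5 CPM in Fcer2a-negative and 10.3 CPM in Fcer2a-positive cells (log2 ratio 1.25, 0.40–2.27). This rests on 11 UMIs in 6 Fcer2a-positive cells, of which 6 UMIs were in suffix 1, 4 in suffix 2, 1 in suffix 3 and 0 in the others. Without suffix 3 the log2 ratio was 0.77, and with the B gate at 8 UMIs it was 0.41. At equal depth the share of cells with 3 or more members was 2.84% (2.25–3.52%) of 2785 Fcer2a-negative and 2.55% (0.70–6.39%) of 157 Fcer2a-positive cells. Within suffixes the thinned share was higher in Fcer2a-negative cells in 6 of 6 for Wnt1 and Fibcd1, in 5 for Zbtb32, Cd5 and Rab11fip4, in 4 for Bhlhe41, in 3 for Serpinb6b, Adgrl2 and Plscr1 and in 2 for Bcat1. Of the 157 thinned Fcer2a-positive cells, 0 held Fibcd1 and 1 each held Wnt1 and Cd5, so for these genes the direction was largely set by the group sizes. By CPM on all counts, Fcer2a-negative cells were higher in 5 suffixes for Wnt1, 4 for Zbtb32 and Rab11fip4, 3 for Fibcd1 and 2 for Cd5. Other settings took single members past 2-fold. With 2 UMIs of Fcer2a required for the positive group, which left 43 cells, the log2 ratio was 2.85 for Wnt1, 1.07 for Rab11fip4 and -1.21 for Adgrl2. Fibcd1 was at -1.06 with the split made on thinned counts, and Cd5 at -1.14 without suffix 3. Rab11fip4 differed on the thinned counts, by 1.70 on the log2 scale against 0.12 on all counts, with 3 thinned Fcer2a-positive cells behind it.

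Genes known from either B cell lineage also moved little at this split. Of 21 B-1 related genes compared, 1 was at least 2-fold higher in Fcer2a-negative cells, Il5ra, the interleukin-5 receptor chain (log2 ratio 1.09, 0.20–2.17). Of the B-2 related genes, Ighd was at -0.89 (-1.09 to -0.68). Of 8 T cell markers, 3 (Trbc2, Cd4 and Lat) were at least 2-fold higher in the Fcer2a-positive cells, and the summed level of the list was 166 CPM there against 98.4 CPM.

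**Figure D2:**
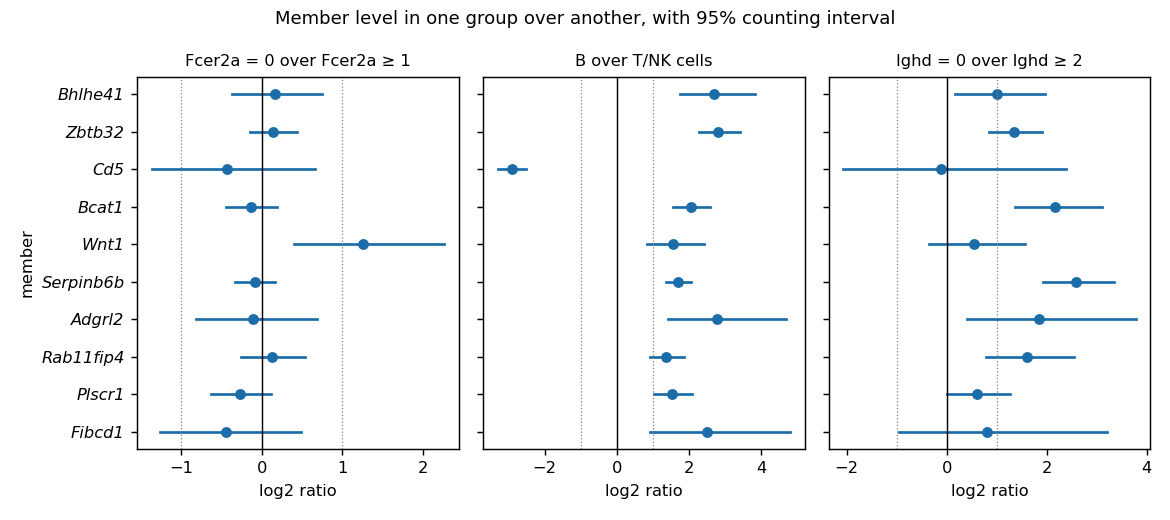
Log2 ratio of each member's level (x axis) with its exact 95% counting interval, for Fcer2a-negative over Fcer2a-positive B cells, all B cells over T/NK cells, and B cells with no Ighd UMI over those with 2 or more. Solid lines stand at 0 and dotted lines at a 2-fold difference. The first panel gathers around 0 except for Wnt1 at 1.25, and the other 2 panels lie to the right except for Cd5.

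Ighd, the constant region of IgD, was denser than Fcer2a, with 1935 UMIs in Fcer2a-negative B cells, and it was used for a second split that was chosen after the Fcer2a values had been seen. With 0 Ighd UMIs (1819 cells at 1500 UMIs), 6 of the 10 members were at least 2-fold higher than with 2 or more (505 cells) and 0 were at least 2-fold lower, beside 7.91% and 4.89% of 9367 genes. Serpinb6b was found in 13.03% (11.5–14.7%) of cells with 0 Ighd UMIs, 6.31% with 1 and 3.17% (1.82–5.09%) with 2 or more. For Bcat1 these shares were 9.79%, 4.37% and 2.57%, and for Zbtb32 15.1%, 9.71% and 6.53%. All 3 genes were thus found less often the more Ighd a cell held. Cells with 2 or more Ighd UMIs had a lower median depth (4386 UMIs) than those with 0 (5757 UMIs), and the part of depth in the split was not tested.

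In log2 ratios of thinned CPM, Serpinb6b was at 2.59 (1.93–3.34), Bcat1 at 2.17 (1.36–3.10), Adgrl2 at 1.85 (0.41–3.78), Rab11fip4 at 1.60 (0.78–2.54), Zbtb32 at 1.36 (0.85–1.90) and Bhlhe41 at 1.01 (0.16–1.97). The thinned share was higher in cells with 0 Ighd UMIs in 6 of 6 suffixes for Bhlhe41, Bcat1 and Serpinb6b, and in 5 of 6 for Zbtb32, Adgrl2, Rab11fip4, Plscr1 and Fibcd1. Plscr1 (0.61, 0.00–1.27) and Wnt1 (0.54, -0.36 to 1.57) were below 2-fold. Cd5 was found in 0.550% of cells with 0 and 0.594% with 2 or more, with 3 UMIs in the smaller group, so a difference was not detectable at this depth. In suffix 6 Zbtb32 went the other way, with 22.4% against 32.1% of cells.

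The same split moved the lineage lists. Of the 21 B-1 related genes, 8 were at least 2-fold higher in cells with 0 Ighd UMIs and 0 lower: Spn, which encodes CD43 (log2 1.72), Bhlhe40 (1.59), Tbx21, the T-box factor T-bet (1.54), Cd9 (1.47), Pdcd1lg2, which encodes PD-L2 (1.31), Lgals1 (1.18), Arid3a (1.07) and Anxa2 (1.04). The median of the list was 0.77, beside 0.03 for all genes. Of the 14 B-2 related genes, 0 were at least 2-fold higher. Those at least 2-fold lower included Zfp318, which enables IgD splicing (-1.53), Fchsd2 (-1.15), Cd55 (-1.14) and Btla (-1.001). Ighd is 1 of the 14 and was lower too, a direction that the split itself fixed. Over all genes, 7.91% were at least 2-fold higher and 4.89% at least 2-fold lower. Irf4 (1.10) and Sdc1, which encodes syndecan-1 (1.55), were higher among the 4 plasma cell genes compared. Some of the genes of these lists also differed with Egr3 (below).

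**Figure D3:**
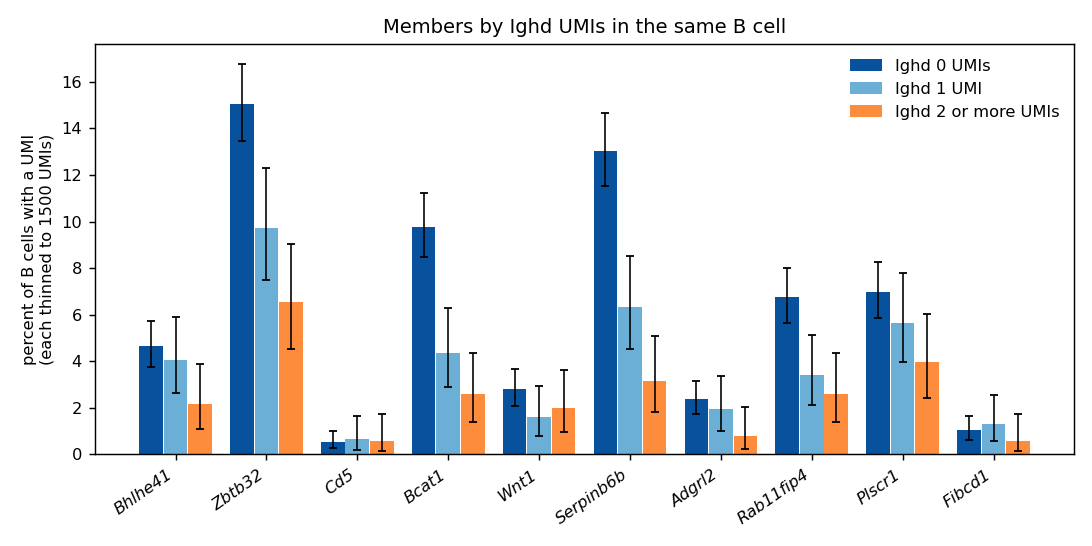
Percent of B cells with a UMI of each member (y axis) after thinning to 1500 UMIs, in cells with 0, 1 and 2 or more Ighd UMIs; bars are pooled over the 6 suffixes and error bars are exact binomial 95% intervals. Serpinb6b goes from 13.03% to 3.17% and Cd5 stays below 1% in all 3 groups.

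Members were also compared within single Fcer2a-negative cells, as the number of cells holding both of a pair against the number that the product of their shares within each suffix gives. Of 45 pairs, 27 had 3 or more cells by that product. Of these 27, 5 (18.5%) were found together at least 2 times as often, beside 1.94% of 53029 pairs of a member with any other gene, and the median ratio was 1.52 beside 1.00. This median depended on the thinning, and was 1.32 with a second random seed, 1.27 at 1000 UMIs and 1.12 at 3000 UMIs. The median number of cells by the product was 8.50 for the members' pairs and 8.54 for the others. The 5 pairs were Wnt1 with Rab11fip4 (13 cells, ratio 2.99, exact Poisson 95% interval 1.59–5.12), Wnt1 with Bcat1 (17 cells, 2.99, 1.74–4.78), Wnt1 with Serpinb6b (19 cells, 2.48, 1.495–3.88), Serpinb6b with Fibcd1 (8 cells, 2.25, 0.973–4.44) and Serpinb6b with Adgrl2 (17 cells, 2.19, 1.28–3.50). These intervals are wide because few cells stand behind each pair: over the 27 pairs, 11 intervals lay above 1, 0 below 1 and 16 spanned it, and 0 lay above 2.

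Bcat1 was found in 206 cells and Serpinb6b in 273, with 51 cells holding both. Serpinb6b was thus in 24.8% (19.0–31.2%) of cells with Bcat1 and in 8.61% of those without, higher in 6 of 6 suffixes. Rab11fip4 was in 14.1% (9.64–19.6%) of cells with Bcat1 and 4.85% without. Zbtb32 was found above the product of shares with Bcat1 (ratio 1.54, 1.13–2.05), Serpinb6b (1.48, 1.14–1.89), Rab11fip4 (1.61, 1.14–2.21) and Wnt1 (1.79, 1.05–2.87).

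For Bhlhe41 and Plscr1 every interval spanned 1, so neither a surplus nor a deficit was detectable at this depth. Bhlhe41 had ratios of 0.769 with Bcat1 (0.282–1.67), 0.911 with Serpinb6b (0.417–1.73) and 1.52 with Zbtb32 (0.940–2.32). Plscr1 had a ratio below 1 with 5 of 7 members compared, 0.550 with Serpinb6b (0.252–1.04), and was in 3.30% (1.52–6.17%) of cells with Serpinb6b against 6.53% (5.59–7.57%) of those without. Cd5 had no pair with 3 or more cells by the product. Of the 27 ratios, 13 stayed above 1 and 1, Serpinb6b with Plscr1, stayed below 1 under all 16 alternatives that recomputed them. The others, among them all 5 of Bhlhe41, fell on both sides. Wnt1 with Serpinb6b kept a ratio of at least 2 in all 16 (2.12 to 3.27), Wnt1 with Bcat1 went down to 1.82 under a second random seed, Wnt1 with Rab11fip4 down to 1.51, and Serpinb6b with Adgrl2 down to 1.20.

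**Figure D4:**
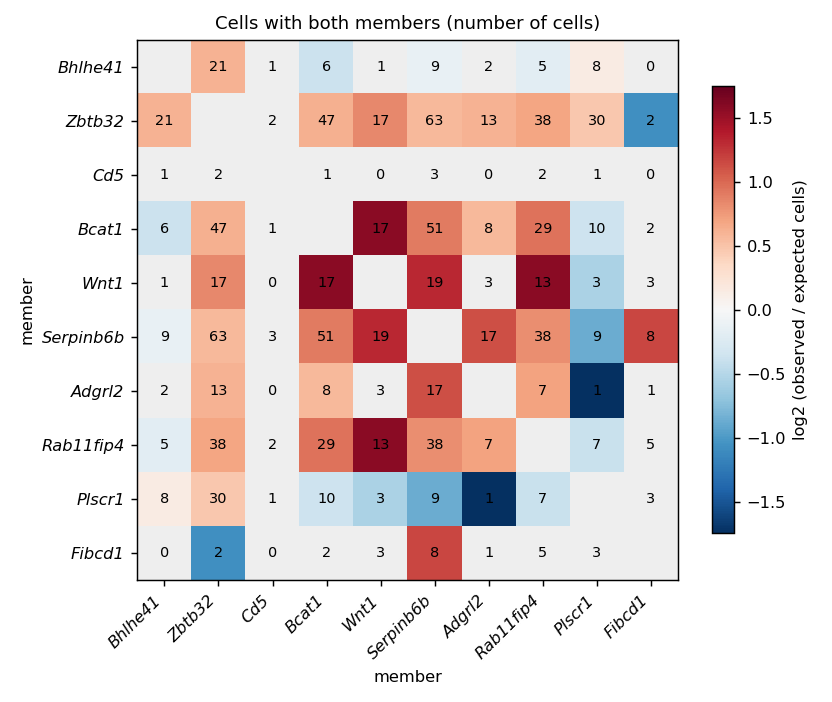
Members found together in 2785 Fcer2a-negative B cells thinned to 1500 UMIs; numbers are cells with both genes, and colour is the log2 of that number over the number from the product of shares within each suffix (red above, blue below, grey where the product gives under 3 cells). Bcat1, Wnt1, Serpinb6b and Rab11fip4 form a red block. The blue cells of Plscr1 and Bhlhe41 have intervals that span 1.

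The 10 genes were sparse even so. At 1500 UMIs, 62.7% (60.9–64.5%) of Fcer2a-negative B cells held none, 37.3% held 1 or more, 11.3% 2 or more, and the most in 1 cell was 5. Among T/NK cells 0.398% (0.048–1.43%) held 3 or more, and of 1478 macrophages 0 did, which allows a share of up to 0.249% by the same exact interval.

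Cells with Cd5 were compared with those without, outside the T/NK limit. The 56 cells with Cd5 were deeper (median 8960 against 5245.5 UMIs). After thinning, Zbtb32 was found in 17.9% (8.91–30.4%) of them against 12.5% (11.2–13.8%), Serpinb6b in 12.5% (5.18–24.1%) against 9.66%, Bcat1 in 7.14% (1.98–17.3%) against 7.45%, and Bhlhe41 in 7.14% (1.98–17.3%) against 4.09%. The intervals of these members overlapped. Ighd was in 1.79% (0.045–9.55%) of cells with Cd5 and in 18.3% (16.9–19.9%) of those without, which did not overlap.

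A last split was by Egr3, an early growth response factor induced by antigen receptor signalling, and was chosen after cells with several members had been inspected. Plscr1 was found in 13.03% (9.02–18.0%) of 238 B cells with a thinned Egr3 UMI and in 5.58% (4.75–6.52%) of 2704 without, higher in 6 of 6 suffixes. Bhlhe41 went the other way, with 1.68% (0.460–4.25%) against 4.33% (3.59–5.16%), lower in 6 of 6 suffixes. In thinned CPM, 2 members (Plscr1 and Fibcd1, the latter on 5 UMIs) were at least 2-fold higher and 1 (Bhlhe41, on 4 UMIs) at least 2-fold lower, beside 7% and 14.6% of 9125 genes. The interval of Serpinb6b spanned 0 (log2 0.29, -0.17 to 0.73). Those of Bcat1 (0.81, 0.24–1.33) and Zbtb32 (0.51, 0.04–0.95) lay above 0, and both genes were below 2-fold. Bcat1 was higher with Egr3 in 5 of 6 suffixes and Zbtb32 in 4. Lyz2, a macrophage gene, was also higher in cells with Egr3 (log2 1.60, 1.00–2.16), at 92.4 against 30.6 CPM, while Csf1r and Adgre1 were at 0 in both by the gate. Cd79b, a gene of the B gate, was lower (-1.57, -1.90 to -1.27) and Cd79a nearer to equal (-0.33, -0.47 to -0.19). The part of these in the Egr3 split was not tested.

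Over the 4 cell classes in each of the 6 suffixes (24 points that share libraries and depth), the genes whose log2 profile was most like the mean of the members included Sema7a (Pearson r = 0.964), B3gnt5 (0.962), Blk (0.962), Cd79a (0.962), A530040E14Rik (0.960), Siglecg (0.960), Lsm6 (0.959), Cd72 (0.957) and Cxcr5 (0.956). Cd79a formed the gate. Zbtb32 followed the mean of the list at 0.975 and Bcat1 at 0.940, while Bhlhe41 (0.296) and Cd5 (0.311) did not. These genes are themselves in the list, and the gates set the cell classes compared.

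Among the paralogs, Cd6 encodes a surface receptor found on T cells, of the same family as Cd5. It was at 3.06 CPM in Fcer2a-negative B cells, 70.1 CPM in T/NK cells and 0.561 CPM in macrophages, and so was highest in the same class as Cd5. Others were higher in macrophages than in B cells, as Bhlhe40 was (above). Serpinb6a was at 6.79 CPM in Fcer2a-negative B cells and 170.3 CPM in macrophages, and Serpinb6c and Serpinb6d had 0 UMIs in all 4 classes. Bcat2, the mitochondrial aminotransferase, was at 19.6 CPM in Fcer2a-negative B cells and 31.1 CPM in macrophages. Of 12 Wnt receptors and coreceptors, Lrp6 was at 22.1 CPM in Fcer2a-negative B cells and 30.8 CPM in macrophages. Fzd6 was at 7.17 CPM (129 UMIs) in Fcer2a-negative B cells with 1 UMI in macrophages, and Fzd1 was at 67.0 CPM and Fzd7 at 12.8 CPM in macrophages with 5 and 1 UMIs in Fcer2a-negative B cells. Bhlhe41, Bcat1, Adgrl2, Rab11fip4 and Plscr1 overlap other annotated genes on the opposite strand, from which reads could not be told apart if strand was not used in counting.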

How the data were processed

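The authors made droplet 5′ single-cell libraries, aligned reads with STAR to the human and mouse genomes through Cell Ranger, and deposited 1 table of raw UMI counts for 6 libraries. The submitters' processing notes name Cell Ranger 2.2, Seurat 3.0 and the builds mm10 and GRCm38; the annotation is not given in the sources used here. Barcode suffixes were not matched to samples, so no condition was compared and no p-value is given.

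A barcode was dropped below 500 genes, below 0.8 for the logarithm of its genes divided by that of its UMIs, or above 10% mitochondrial UMIs. Gates were set on full counts. Counts were summed over cells to give CPM. Genes averaging under 5 CPM across the classes were not compared, and a count of 0 was read as 3. A ratio was not resolved where both counts were at most 3, or where that bound crossed 1. Shares and pairs used cells thinned to 1500 UMIs, which left out 35 of the Fcer2a-negative, 2 of the Fcer2a-positive, 16 of the T/NK cells and 8 macrophages. Intervals are exact at 95% (scipy 1.17.1, Python 3.11.15). Scrublet (scanpy 1.11.5, expected rate 0.01) called 47 of 7760 barcodes, 7 of them B cells, which were kept. Free RNA was not removed. The ratios, thinning and pairs were tested on simulated counts.

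The 10 genes and all lists were chosen with earlier results of these data known, so their values are descriptions. Named are all 10 members, list genes past 2-fold or used for comparison, and genes from the 10 most like the members; some genes of these lists are not reported here. The Ighd and Egr3 splits, the stricter T/NK class and the pairs' background were added after seeing the data.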

Additional observations from a re-analysis of the deposited data

How the results depend on the processing

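Depth limited the values: Fcer2a rested on 231 UMIs in B cells and Cd5 on 124 UMIs in Fcer2a-negative cells. No paired analysis was possible between genotypes or times because the suffixes carry no replicate number and were not matched to samples; cell classes were compared within each suffix. The count of members at least 2-fold higher in Fcer2a-negative cells (1) was 0 with the B gate at 8 UMIs, 2 with 2 UMIs of Fcer2a required, 2 on thinned sums, and 0 to 1 when each suffix was left out (0 without suffix 3). The share of Fcer2a-negative cells was 97.9% split on thinned counts, 98.5% with 2 UMIs of Fcer2a required and 91.6% with cells holding Ighd or Cr2 also left out of the negative group. The share of Fcer2a-negative cells with 3 or more members (2.84%) was 1.95% with the gate at 8 UMIs, 3.56% at 2 UMIs, 3.77% without Ighd or Cr2, 0.816% thinned to 1000 UMIs and 9.69% to 3000, and 2.37% to 3.30% when each suffix was left out; in Fcer2a-positive cells it was 12.9% at 3000 UMIs. Of 9 members higher than in T/NK cells, 5 passed with the gate at 8 UMIs, and 6 with equal weight for each suffix. The 5 pairs became 2 when thinned to 1000 UMIs and 3 without cells holding Egr3. Cd5 was at 3.99 CPM without cells inside the T/NK limit. The causes were not tested. The Ighd count lay between 4 and 8 and the count against macrophages stayed at 9 under every alternative run. The direction of single members was followed at the Fcer2a split only. There Wnt1, the member at least 2-fold apart, stayed higher in Fcer2a-negative cells (log2 0.41 to 2.85). Members below 2-fold there, such as Cd5 (-1.14 to 0.45) and Rab11fip4 (-0.37 to 1.70), fell on both sides of 0.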
